A study of Pinctada imbricata with 5 samples.

Results

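The pearl sac of a pearl oyster was compared between day 15 and day 10 after surgical implantation, across every unigene (assembled transcript) that had a tag in either library. There were 14851 such unigenes of 19415 listed in the series of 5 libraries: 3176 were listed on day 10 alone, 5265 on day 15 alone and 6410 on both days. Per the labels the sacs came from oysters 1.5 years old, total RNA was taken with Trizol, and each day is 1 library, with nothing on how many sacs or oysters it holds. No oyster carried an allele or received an agent that the labels name. The organism is labelled Pinctada imbricata for the samples and Pinctada martensii in the series title. The title names candidate genes of nacre formation as the aim, and the question here is which transcripts differed between these 2 times.

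The pearl sac is a pouch of epithelium that grows out of a graft of donor mantle and encloses the implanted nucleus. In the mantle and the sac, secreted proteins, among them tyrosinases, lectins, protease inhibitors and acidic matrix proteins, build the organic framework in which calcium carbonate crystals grow. Motile cilia, which cover many molluscan epithelia and also drive sperm, are built on an axoneme of tubulin doublets bent by dynein motors.

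Each unigene was measured by 21-base tags that start at a CATG site of its messenger RNA, and its tag count is the sum over its tags. Each library's total, recovered from the deposited values, was 4731837 tags on day 10 and 4777386 on day 15, and 933782 tags (19.7%) and 970724 tags (20.3%) of those were listed for unigenes. TPM is a tag count relative to that total, on the usual scale of this unit, and scaled TPM is TPM divided by the library's TMM factor, 0.946 on day 10 and 1.16 on day 15. For a unigene to be compared, its higher level had to reach 10 scaled TPM, equal to 44.8 tags on day 10 or 55.4 on day 15. It counted as higher or lower on day 15 when, in addition, no ratio inside its 95% interval was within 2-fold. A unigene under the level on 1 day entered through the other day, so its direction was in part set by that choice. All intervals cover counting error only. With 1 library a day, the spread between oysters and between preparations was not measured, so no difference below was tested and none carries a p-value. A fold against a unigene that was not listed is taken against a floor of 3 tags in that library and written as "at least". Counting error is not part of that value, so the interval bound nearest to 1 can be smaller. In a whole tissue, fewer cells of a type and less RNA per cell cannot be told apart.

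The tags that carried the differences described below were the following, each the most abundant tag of its unigene in the library where that unigene was higher, with the CATG site in capitals. The first 4 belong to unigenes with no protein match, for which the tag is the identity the files give. The others belong to named proteins of the groups below, not always the member with the largest difference.
Unigene40430, higher on day 15: CATGtctcccaattattccac
Unigene90288, higher on day 15: CATGatcagcatagcgaaaaa
Unigene13576, lower on day 15: CATGggaacaaatgtggatac
Unigene6737, lower on day 15: CATGttaaaacggtcgcagaa
Beta-tubulin, Unigene18140: CATGtaaacaagtgtagctaa
Axonemal dynein heavy chain 5, Unigene82585: CATGcagccttaatccattca
Cytochrome c oxidase subunit IV, Unigene85613: CATGctgagagaaaaagagaa
26S protease regulatory subunit 6B, Unigene75762: CATGcccaggaagaagtgaag
Serine proteinase match, Unigene38190: CATGtagtggtgacagtggtg
Kazal-type inhibitor, Unigene80425: CATGgacatcttcccttagag
PIF, Unigene83722: CATGgacttcattacatcgga

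Called transcripts of cilia and the proteasome and most of those of the respiratory chain were more abundant on day 15, and those of the shell matrix, protease inhibitors and most called lectins and complement-like proteins were less abundant. Of the 1669 unigenes compared, 339 were higher on day 15 (20.3%) and 400 lower (24.0%), together 44.3%, and 930 were neither. The median log2 ratio of all those compared was -0.02. Medians were taken with 1 scaled TPM added to both levels. For lists with unlisted members, a second one is given as the unadded median, with nothing added and every count under 3 tags set to 3. Among matched unigenes compared, 31.1% were higher and 17.6% lower, and among those with a gene ontology term 28.3% and 13.9%. Against the recovered totals with no TMM factor, 468 were higher and 319 lower, so that 59.5% of the calls were higher ones in place of 45.9%, and the median moved up by 0.29 on the log2 scale. The called unigenes held a large part of each library: those that were higher went from 31703 tags (3.40% of the listed tags) to 198844 (20.5%), and those that were lower from 190627 (20.4%) to 20284 (2.09%).

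**Figure D1:**
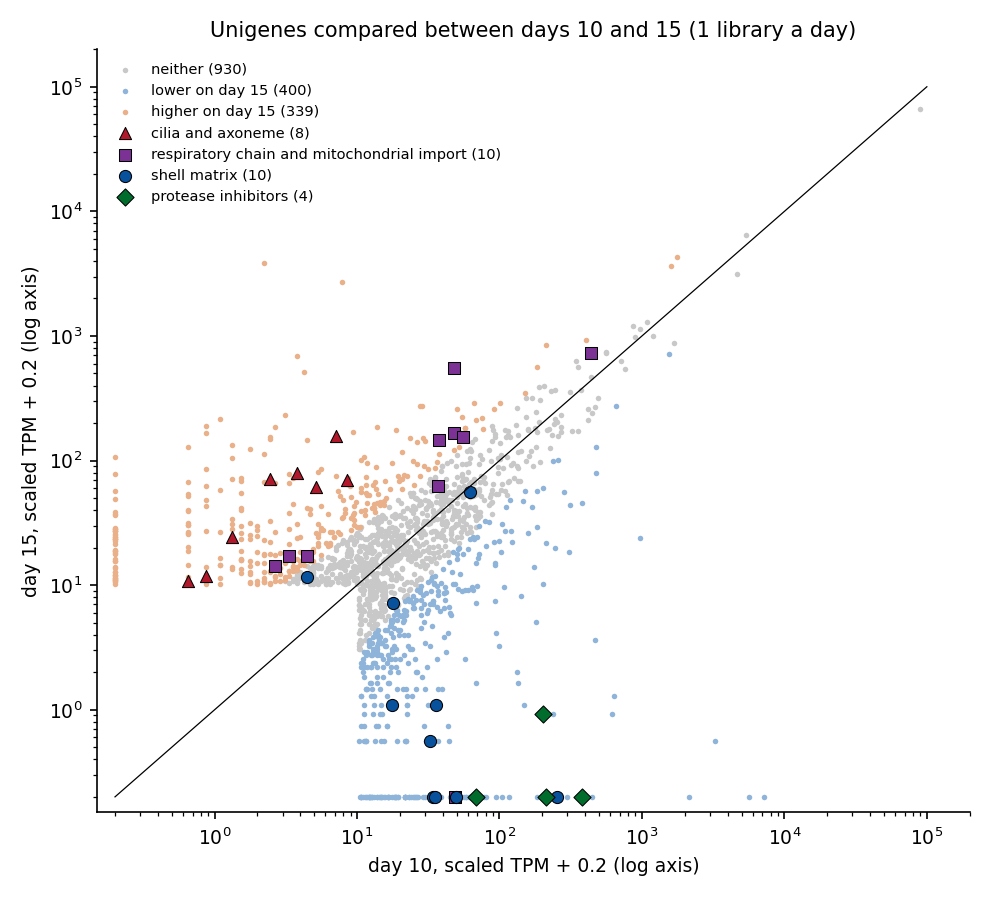
Scaled TPM (plus 0.2, log axes) of each of the 1669 unigenes compared, day 10 on the x axis and day 15 on the y axis, 1 library a day, with the line of equal level. Grey, blue and orange points are unigenes that were neither, lower or higher on day 15; the 8 cilia members lie above the line, 7 of the 10 shell matrix members are among the lower ones, and the 4 protease inhibitors lie at the bottom edge or close to it.

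Most of these differences were not small. Among unigenes that were higher, the bound of the interval nearest to 1 was above 10-fold for 104 and above 50-fold for 13, and among those that were lower it was above 10-fold for 132 and above 50-fold for 45. No tag was listed in the other library for 45 of the 339 higher unigenes (13.3%) and for 93 of the 400 lower ones (23.3%). Calls were made at every level: 41.1% of the unigenes between 10 and 20 scaled TPM were called, 44.9% of those between 50 and 100, and 54.3% of those at 500 or above.

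The largest difference in each direction belonged to a unigene without a protein match. A serine proteinase match described below (Unigene38190), at 358-fold higher (256 to 517), was ahead of Unigene90288. Unigene40430 had 9 tags on day 10 and 21229 on day 15, 1905-fold higher (95% interval 1003 to 4167), and 4, 77 and 2 tags on days 20, 30 and 60. Unigene90288 had 16 tags and then 3795, 192-fold higher (118 to 335), and 19, 5 and 0 on the later days. Its leading tags lay at different CATG sites on days 10 and 15. At the 3′-most site it had 0 and then 10 tags, below the level for comparison. Unigene40430 and Unigene90288 were thus abundant in the day 15 library alone of the 5. In the other direction, Unigene13576 had 31973 tags on day 10 and none listed on day 15, at least 13197-fold lower. Unigene6737 had 25253 tags and then none listed, at least 10423-fold lower. Those lower unigenes were abundant again on day 30, with 46487 and 8483 tags. The single most abundant unigene of both libraries, Unigene51171, best matched by vacuolar sorting protein 13D of another animal, had 403032 tags on day 10 and 366268 on day 15 and was not called.

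Unigenes with a protein match behaved differently in number from those without one. A match in the nr protein database was given for 5341 of the 19415 unigenes, of which 2092 (39.2%) were listed on day 10 and 3527 (66.0%) on day 15; of the 14074 without a match, 7494 (53.2%) and 8148 (57.9%) were. Counting only unigenes with at least 5 tags, matched unigenes went from 1020 to 1592 and unmatched ones from 4276 to 4535. Among the unigenes compared, 111 of 357 with a match were higher and 63 lower (median log2 ratio 0.55), and 228 of 1312 without a match were higher and 337 lower (median -0.19). After thinning day 15 to the listed tags of day 10, it kept 11667 of its 11675 unigenes, or 11449 with 2 or more tags, against 9586 on day 10. No tag under 2 copies is listed, so 11449 is the number to set beside 9586. The listed tags were close in number (970724 and 933782), so thinning could change little. Unigenes listed on 1 day only were mostly scarce, with a median of 3 tags, and 75.3% of those of day 10 and 80.1% of those of day 15 had between 2 and 5 tags. Days 20, 30 and 60 had 1968, 1866 and 2500 matched unigenes listed, all fewer than day 15.

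The proteins were grouped into 28 lists by words in the description of the match. Most lists were detected more widely on day 15, as were all matched unigenes (39.2% and then 66.0%), and the rise differed between lists. Chromatin proteins went from 8 to 33 of 43 listed (18.6% to 76.7%), ciliary proteins from 19 to 53 of 65 (29.2% to 81.5%) and glycolytic and other energy enzymes from 14 to 30 of 36 (38.9% to 83.3%). Chaperones (37.5% to 75%), splicing and RNA processing (43.7% to 79.6%) and the ubiquitin and proteasome list (33.0% to 69.3%) also rose more than all matched unigenes. Mitochondrial ribosomal proteins, with 17 and then 25 of 28 (60.7% and 89.3%), were above all matched unigenes on both days and rose by a similar amount. Shell matrix proteins went the other way, from 27 to 14 of 35 (77.1% to 40.0%), and lectins and other innate immune proteins from 39 to 36 of 66. The lists of proteases, with 36 of 60, and protease inhibitors, with 13 of 23, were listed in equal numbers on both days.

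**Figure D2:**
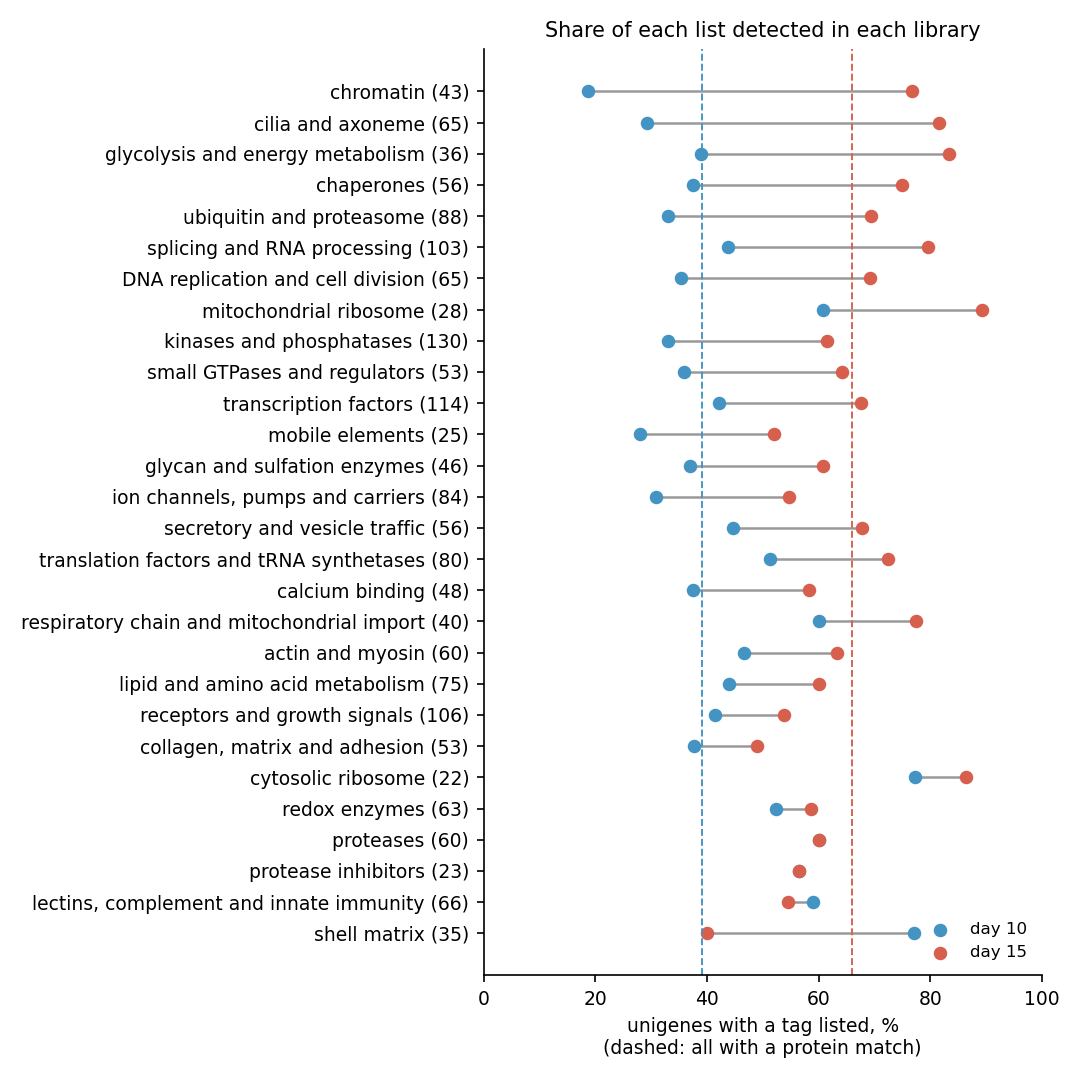
Share of the unigenes of each of 28 lists that had a tag listed on day 10 (blue) and on day 15 (red), in %, with the number of unigenes matched in brackets. Dashed lines mark all unigenes with a protein match, 39.2% on day 10 and 66.0% on day 15; shell matrix falls from 77.1% to 40.0% while chromatin and cilia rise from below the day 10 line to above the day 15 line.

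Ciliary genes that reached the level for comparison were all higher on day 15. Of the 65 unigenes of the cilia and axoneme list, 8 reached the level for comparison and 8 of 8 were higher on day 15, with a median log2 ratio of 3.49, beside 20.3% higher over all unigenes compared. All 8 were under that level on day 10 and entered through day 15, so their common direction was largely set by this choice. The summed level of the list went from 45.8 to 548 scaled TPM. Dynein light chain 2B is called cytoplasmic by its match, and without it 7 of 7 were higher.

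The filaments of the axoneme were led by beta-tubulin (Unigene18140), with 31 tags on day 10 and 877 on day 15, 22.8-fold higher (16.0 to 33.8). Its partner, an alpha-tubulin (Unigene80575), had 22 and then 340 tags, 12.5-fold higher (8.11 to 20.2), with no tag at the 3′-most site. Tubulins also serve the spindle and transport in all cells, so they mark cilia less closely than the motors do. The motor itself, axonemal dynein heavy chain 5 of the outer arms (Unigene82585), had 16 and then 438 tags. The armadillo repeat containing 4 match (Unigene89946), of a protein needed in vertebrates to dock those arms, had 10 and then 394. Radial spoke 3 (Unigene73085) and radial spoke head 1 (Unigene81707), parts of the spokes that control bending, had 3 and 2 tags and then 64 and 59, ratios of 17.2 (5.64 to 85.7) and 23.8 (6.31 to 201). All of these were low on day 10 and high on day 15. On days 20, 30 and 60 beta-tubulin had 11, 209 and 49 tags, the dynein heavy chain 18, 10 and 30 and the armadillo match 0, 0 and 17, so none of them came back to its day 15 count in these libraries.

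Further ciliary unigenes below the level for comparison were chosen for mention after their values were seen. In the whole list, 3 unigenes were listed on day 10 alone and 37 on day 15 alone. The outer arm dynein light chain 4 match (Unigene79350) had 5 tags on day 10 and 37 on day 15, and ciliary dynein intermediate chain 2 (Unigene92785) had 0 and 27. Cytoplasmic dynein 1 heavy chain (Unigene53743), a motor of transport inside cells and not of ciliary beating, had 35 and 0. Outside the list, unigenes matching EFHC2 (Unigene92292), a protein of axonemal microtubules, went from 39 to 343 tags, 7.10-fold (5.09 to 10.2), and IQ motif containing G (Unigene89296), a part of the dynein regulatory complex, from 16 to 72, 3.63-fold (2.09 to 6.69).

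The markers of other cell types bear on these genes. Of 26 unigenes of the list of sperm and motile cilia markers, 4 were listed on day 10 and 23 on day 15, and 4, 7 and 7 on days 20, 30 and 60. Their summed level was 5.81 scaled TPM on day 10 and 143 on day 15, and 4 of the 4 compared were higher, all of them also members of the cilia list that entered through day 15. Sperm autoantigenic protein 17 (Unigene88198), known in mammals from the sperm tail and from motile cilia, had 5 tags on day 10 and 135 on day 15, 21.8-fold higher (9.12 to 68.2). A set of 15 unigenes matched to proteins of meiosis, spermatogenesis or the testis, to tektins or to cyclin B3 was put together after the data were seen. Tektin and sperm are also words of the marker list above, so this set is no separate readout. It had 3 members listed on day 10 and 13 on day 15, against 4, 2 and 4 on days 20, 30 and 60. Its summed level was 9.38 and 79.9 scaled TPM on days 10 and 15, of which Unigene86418 alone gave 8.27 and 65.1.

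In that set, heat shock transcription factor 2 binding protein (Unigene86418), which in mice is a meiotic recombination factor of the testis, had 37 tags on day 10 and 361 on day 15, 7.88-fold higher (5.61 to 11.4). It was the one member that reached the level for comparison, and its tags lay at a CATG site other than the one nearest the 3′ end. Synaptonemal complex protein 3 (Unigene91047), of the axis that holds meiotic chromosomes, had 3 and 26 tags. Synaptonemal complex protein 1 (Unigene85275) had 0 and 5, and the Dmc1 match (Unigene91847), of the recombinase of meiosis, 0 and 8. Cyclin B3 (Unigene92715) had 0 and 14 on days 10 and 15 but also 30 on day 60, and the MutS homolog of meiosis (Unigene5820) had 2 and 0. Counts this small were near the lowest that the files list, 2 copies. The part of germ cells or sperm in the ciliary rise was not tested.

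Markers of the remaining cell types did not move as one. The muscle list had 6 of 15 unigenes listed on day 10 and 9 on day 15, and both members compared are named non-muscle by their match, so at this level it held no marker of muscle. Its sum was 483 and then 26.9 scaled TPM with non-muscle actin 6.2 (Unigene21986), which had 2083 tags and then 19, and 17.7 and then 23.5 without it. Hemocyte markers were at 161 and 28.0 scaled TPM, through allograft inflammatory factor 1 (Unigene89534), with 713 tags and then 144. Egg and germline markers had 2 of 8 unigenes listed on each day, and nervous markers 12 and 11 of 28, at 54.5 and 62.3 scaled TPM. Digestive gland markers had 1 and then 3 of 3 listed, at 22.6 and 9.02 scaled TPM, and the one compared, a pancreatic lipase-related protein (Unigene92137), was 2.98-fold lower (2.06 to 4.38), with 101 and then 42 tags, a call that 3 of 4 other scalings did not keep. The part of any of these cell types in the results below was not tested.

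Most mitochondrial energy genes that were compared were higher on day 15. In the list of the respiratory chain and mitochondrial import, 7 of 10 unigenes compared were higher and 1 was lower. Of all matched unigenes compared 31.1% were higher and 17.6% lower. The median log2 ratio of the list was 1.78 (1.88 by the unadded median), and the summed level went from 736 to 1897 scaled TPM. Among the higher ones, Unigene73343, Unigene79942 and Unigene85283 entered the comparison through day 15 only. The lower one entered through day 10 only, so these directions were in part set by that choice. Cytochrome c oxidase subunit IV (Unigene85613), of the complex that passes electrons to oxygen, had 213 tags on day 10 and 3070 on day 15, 11.6-fold higher (10.1 to 13.4). It then had 583, 427 and 1492 tags on days 20, 30 and 60. Subunit 5A of the same complex (Unigene85283) had 14 and then 94 tags, 5.42-fold higher (3.08 to 10.3), though nearly all of its tags lay away from the 3′-most site, which had 2 tags on day 10 and 0 on day 15.

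Complex I and the ATP synthase moved in the same direction. The complex I 42 kDa subunit (Unigene92462) had 249 and then 857 tags, 2.78-fold higher (2.41 to 3.21), and beta subcomplex subunit 7 (Unigene73343) had 19 and then 94, 4.00-fold (2.42 to 6.93). The ATP synthase gamma subunit (Unigene66591), the rotating shaft of the enzyme, had 168 and then 810 tags, 3.89-fold higher (3.29 to 4.63). The beta subunit (Unigene59783), which holds the catalytic sites, was the most abundant member, with 1954 and then 4023 tags, and at 1.66-fold (1.57 to 1.76) it was not called. A delta subunit outside the list (Unigene34477) had 677 and then 1915, 2.28-fold (2.09 to 2.50). The subunits of 1 enzyme thus differed among themselves in their ratio. The member that was lower was the match to the import translocase TIM44 (Unigene82768), which helps pull proteins into the matrix, with 216 tags on day 10, none listed on days 15, 20 and 60, and 97 on day 30.

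Some enzymes that feed the chain, also outside the list and mentioned after their values were seen, were higher as well. Succinyl-CoA ligase subunit alpha (Unigene83595), of the citric acid cycle, had 183 and then 321 tags and was not called. The IDH3B match (Unigene56184), a subunit of the isocitrate dehydrogenase of the citric acid cycle, had 57 tags and then 349, 4.94-fold (3.73 to 6.66). The electron transfer flavoprotein beta match (Unigene86341), which takes electrons from fatty acid oxidation, had 122 and then 413, 2.73-fold (2.23 to 3.37). In glycolysis the 2 unigenes compared were both higher: glyceraldehyde 3-phosphate dehydrogenase (Unigene36947) with 9 and then 69 tags, 6.19-fold (3.08 to 14.1), and pyruvate kinase (Unigene81583) with none and then 104, at least 28.0-fold. Both entered the comparison through day 15 only, and of all matched unigenes compared 31.1% were higher.

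Ribosomal proteins were compared in 2 groups. Of 5 mitochondrial ribosomal proteins compared, 3 were higher and 0 lower, at a median log2 ratio of 1.62. Of all matched unigenes compared 31.1% were higher and 17.6% lower. L41 (Unigene88396) had 51 tags and then 304, 4.81-fold (3.57 to 6.61). L12 (Unigene89745) had 36 and then 211, and L37 (Unigene87747) 18 and then 80. Both L12 and L37 entered the comparison through day 15 only, which in part set their direction. Of 7 cytosolic ribosomal proteins, 0 were higher and 0 lower, and the median was -0.02. Ribosomal protein L9 (Unigene23715) had 3846 and then 6705 tags, 1.41-fold higher (1.35 to 1.47), and S10 (Unigene86218) 1967 and then 2575, 1.06-fold (0.997 to 1.12). Whether the 2 kinds of ribosome differ in their change was not tested.

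Several genes of protein turnover and folding were higher on day 15. In the ubiquitin and proteasome list 4 of 6 unigenes compared were higher and 0 lower (median log2 ratio 1.47, or 1.49 by the unadded median). Of all matched unigenes compared 31.1% were higher and 17.6% lower. The list had 29 of 88 unigenes listed on day 10 (33.0%) and 61 on day 15 (69.3%), beside the 39.2% and 66.0% of all matched unigenes. Subunit 6B of the 26S proteasome (Unigene75762), an ATPase of the cap that unfolds substrates, had 83 tags and then 980, 9.54-fold higher (7.62 to 12.1), with 68, 3 and 70 on days 20, 30 and 60. The alpha-5 subunit (Unigene90760), of the ring that gates the proteolytic core, had 241 and then 928, 3.11-fold (2.70 to 3.60). Another regulatory subunit (Unigene91107) had 215 and then 674, 2.53-fold (2.17 to 2.97). The beta 2 subunit (Unigene88506) had 62 and then 159, and its interval of 1.54 to 2.82 did not clear 2-fold. A kelch-like 26 match (Unigene46952), of a family of adaptors for ubiquitin ligases, had none and then 86 tags. It entered the comparison through day 15 only.

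Among chaperones 3 of 4 unigenes were higher once the heat shock factor binding protein named above, which is no chaperone, was left out (4 of 5 with it). Of all matched unigenes compared 31.1% were higher, and these 3 chaperones entered through day 15 only. Heat shock protein 90 (Unigene83137) had 7 tags and then 67, 7.73-fold higher (3.55 to 20.0). Mitochondrial heat shock protein 60 (Unigene89867), the barrel of the chaperonin, had 5 and then 73, 11.8-fold (4.83 to 37.4), and its lid, the 10 kDa protein (Unigene20937), had 60 and then 184, 2.48-fold (1.84 to 3.37), and was not called. Calreticulin (Unigene90482), a chaperone of the endoplasmic reticulum that also stores calcium, had 12 and then 100, 6.73-fold (3.69 to 13.5).

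Called proteases were higher on day 15 and called protease inhibitors lower. Of 8 proteases compared 4 were higher on day 15 and 0 lower (median log2 ratio 1.67, or 2.01 by the unadded median), and of 4 protease inhibitors 0 were higher and 4 lower (median -7.31, or -8.38 by the unadded median). Over all unigenes compared, 20.3% were higher and 24.0% lower. The 4 inhibitors entered the comparison through day 10 only and the 4 higher proteases through day 15 only, which largely set their directions. The summed level of proteases went from 100.1 to 2965 scaled TPM, of which most was 1 unigene, and that of inhibitors from 878 to 14.1. That unigene, a serine proteinase match (Unigene38190, e-value 5.71e-09), had 34 tags on day 10 and 15077 on day 15, and on the later days 4, 18 and 0. A second serine proteinase match (Unigene63907) had 0 and then 432 tags. For both, the best match was a protein of the nematode Heterodera glycines. Thrombin (Unigene83879), named after a clotting protease of vertebrates, had 14 and then 154 tags, 8.88-fold higher (5.14 to 16.6).

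The 4 inhibitors compared had between 0 and 4 tags on day 15, while 8 of the 23 in the list were listed on day 15 alone. A Kazal-type inhibitor (Unigene80425), of a family that blocks serine proteases, had 1697 tags on day 10 and none listed on day 15 or 20, then 563 on day 30 and 2 on day 60. Another (Unigene71003) had 304 and none listed, with 246 on day 30. The antistasin match (Unigene58429), of an inhibitor first described in leeches, had 954 and none listed, with 1402 on day 30. The follistatin-like 1 match (Unigene53180), which carries a Kazal-like domain but is known mainly as a secreted glycoprotein, had 905 and then 4. All 4 were thus high on days 10 and 30 and low or not listed on days 15 and 60. Tissue inhibitor of metalloproteinase (Unigene84543), below the level for comparison, had 0 and then 30 tags.

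**Figure D3:**
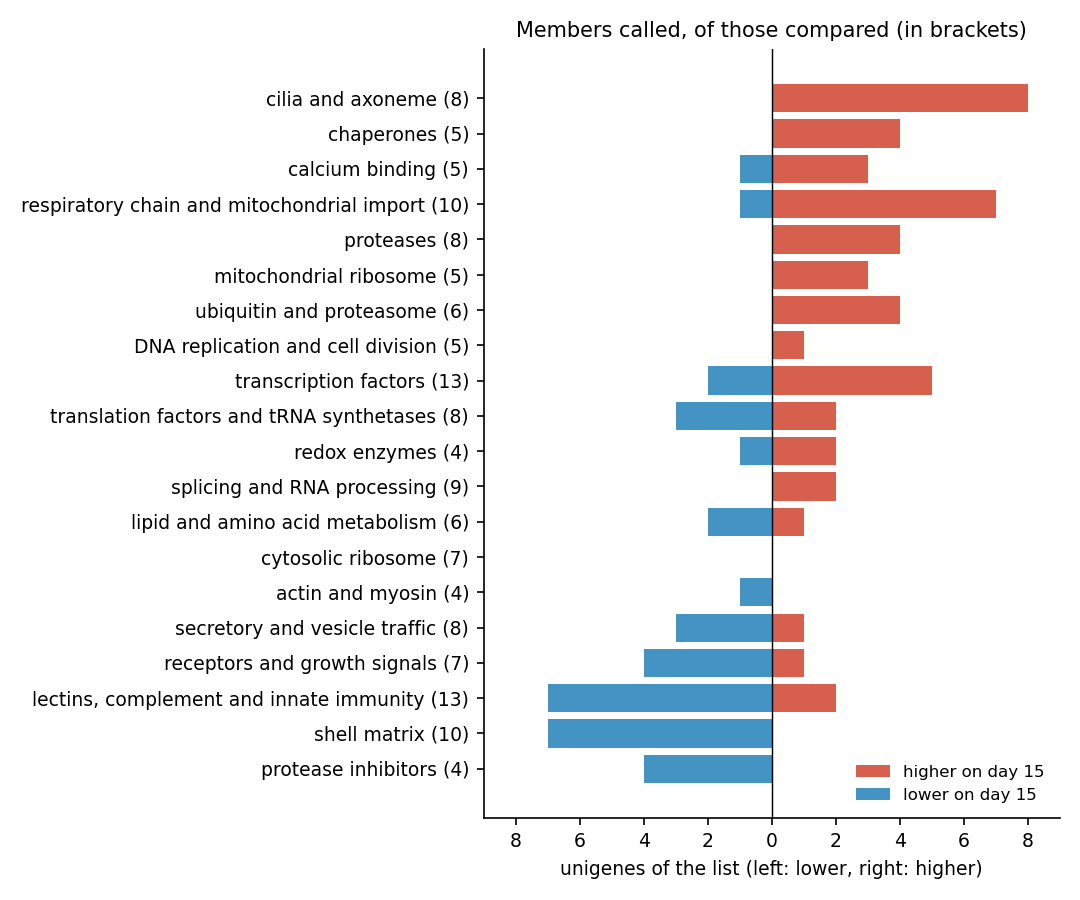
Number of unigenes higher (red, right) and lower (blue, left) on day 15 for the 20 lists with at least 4 unigenes compared, ordered by their median log2 ratio from the highest at the top to the lowest at the bottom, with the number compared in brackets. Cilia at the top have 8 higher of 8, cytosolic ribosomal proteins have none called of 7, and shell matrix and protease inhibitors at the bottom have lower members only.

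Most shell matrix genes that were compared were lower on day 15. Among 10 unigenes compared, 7 were lower and 0 higher, at a median log2 ratio of -4.44 (-5.61 by the unadded median) and a summed level of 570.2 and then 91.8 scaled TPM. Over all unigenes compared, 24.0% were lower. The 7 lower ones had at most 5 tags on day 15 and entered the comparison through day 10 only, which in part set their direction. The tyrosinase-like protein (Unigene1470), an oxidase that tans the organic matrix, went from 1127 tags on day 10 to none listed on days 15, 20 and 60, and 2622 on day 30. The acidic protein PIF (Unigene83722), an aragonite-binding protein of nacre, had 160 and then 5, and stayed at 3 to 7 on the later days. The 3 nacre protein matches had 219, 145 and 78 tags and then 0, 2 and 5. The 3 unigenes that were not called all matched mantle gene 4, and they differed among themselves: Unigene59776 had 277 and 308 tags, Unigene75755 had 79 and 39, and Unigene79830 had 19 and 63.

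Below the level for comparison the list was also mixed. A second tyrosinase match (Unigene201) had 28 tags and then 0, and a nacrein-like match (Unigene62981), of a carbonic anhydrase of the shell, had 15 and then 0. Mantle gene 1 (Unigene89281) went against these, with 6 tags on day 10, 47 on day 15 and 450 on day 20.

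**Figure D4:**
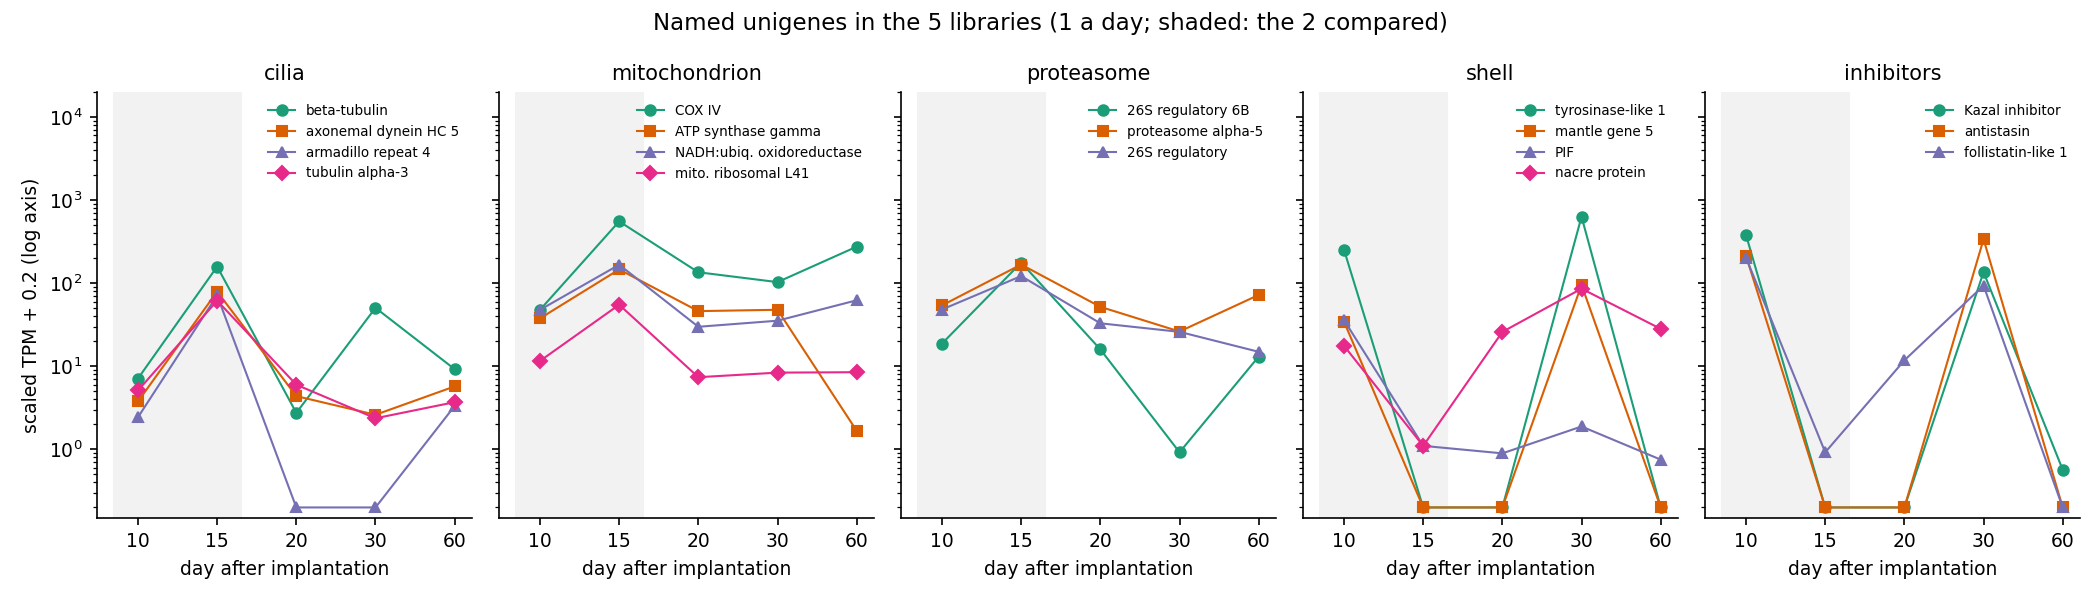
Scaled TPM plus 0.2 (log axis) of 18 named unigenes in the 5 libraries, 1 library a day, with days 10 and 15 shaded and lines joining the days only to guide the eye; the unigenes were chosen after their values were seen. Cilia, mitochondrial and proteasome unigenes stand highest on day 15, for example cytochrome c oxidase IV with 3070 tags, while tyrosinase-like protein 1, mantle gene 5 and the inhibitors stand lower on day 15 than on days 10 and 30.

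Lectins and complement-like proteins, which bind foreign or damaged surfaces in molluscs, were more often lower than higher. Among 13 compared, the lower ones numbered 7 and the higher ones 2, at a median log2 ratio of -1.83. Over all unigenes compared, 24.0% were lower and 20.3% higher. Except for allograft inflammatory factor 1, the lower ones entered the comparison through day 10 only. The higher ones entered through day 15 only, so these directions were in part set by that choice. The 2 jacalin-related lectins, a family found in shell as well as in defence, had 73 and 85 tags on day 10 and 0 and 2 on day 15 (Unigene62299 and Unigene2003), at least 30.1-fold lower and a ratio of 52.6 (14.1 to 442). Galectins split: the galectin-4 match (Unigene89194) had 14 tags and then 429, 24.7-fold higher (14.6 to 45.7), while galectin (Unigene82154) had 1206 and then 942, 1.59-fold lower (1.45 to 1.73), and was not called. Among complement-like C1q proteins, Unigene70093 had 112 and then 35 tags, 3.96-fold lower (2.69 to 5.97), and C1q domain-containing protein 2 (Unigene86498) had 158 and then 410, 2.10-fold higher (1.74 to 2.53), which was not called.

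Among the other called members, a galactose-binding lectin (Unigene75519) had 174 tags on day 10 and none listed in any later library. The thioester-containing protein F match (Unigene38628), of a family that tags microbes for uptake, had 81 tags and then 5. Peptidoglycan recognition protein L (Unigene88153), a sensor of bacterial walls, had 13 and then 63, 3.91-fold higher (2.13 to 7.75). The 2 Toll receptor matches (Unigene17023 and Unigene50063) had 48 and 59 tags and then 64 and 43, and neither was called.

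Receptors and signals at the cell surface were mostly lower where they could be compared. Without a translocon subunit and a nuclear protein that matched the list by another word, 1 of 5 was higher and 3 lower. Of all matched unigenes compared 31.1% were higher and 17.6% lower. The 3 lower ones entered the comparison through day 10 only, which in part set their direction. The LRP6 match (Unigene92669), of a co-receptor for Wnt ligands, had 64 tags and then 7, 11.3-fold lower (5.19 to 29.3). A calcitonin-related receptor match (Unigene68191) had 57 and then 16, 4.41-fold lower (2.50 to 8.23), and a putative G protein-coupled receptor (Unigene89256) had 200 and none listed on day 15, but 202, 169 and 62 on the later days. The mannose receptor match (Unigene91660), of a lectin that takes up glycoproteins, was higher, with 140 and then 476 tags. MEGF7 (Unigene89191), another protein of the LRP family, was outside the list, with 134 tags on day 10 and none listed in any later library.

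Adhesion and secretion gave single genes and no common direction. The CD151 match (Unigene87984), a tetraspanin that partners with integrins, had 2 tags and then 220, a ratio of 88.8 (24.3 to 738), and the integrin beta-1 match (Unigene20091) had 54 and then 8, 8.36-fold lower (3.95 to 20.3). Most of the CD151 tags lay away from the 3′-most site, and at that site alone it was not called. In secretion, syntaxin-1A (Unigene15671), a protein of vesicle fusion, had 56 and then 18 tags, 3.85-fold lower (2.23 to 6.96), and signal sequence receptor beta (Unigene66740), of the channel through which secreted proteins enter the endoplasmic reticulum, 652 and then 262, 3.08-fold lower (2.67 to 3.57). Of the 8 unigenes compared in the secretory list 1 was higher and 3 lower, or 1 higher and 1 lower when the totals alone set the scale.

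Calcium-binding proteins were higher in 3 of 5 unigenes and lower in 1, beside 31.1% and 17.6% of all matched unigenes compared. The 3 higher ones entered the comparison through day 15 only. Calmodulin (Unigene91212), which passes calcium signals to many enzymes, had 2 tags and then 104, a ratio of 42.0 (11.3 to 351), and the annexin A11 match (Unigene84692), which binds membranes in the presence of calcium, had 6 and then 402, 54.1-fold higher (24.6 to 148). Annexin IX-A (Unigene89973) was lower, with 379 and then 176 tags, 2.67-fold (2.22 to 3.21), and that call was lost when the totals alone set the scale. The calmodulin tags lay at the second CATG site from the 3′ end, and at the first site alone it was not called.

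In the nucleus, regulators went both ways. Of 10 transcription factors, leaving out general initiation factors and the heat shock factor binding protein, 3 were higher and 2 lower, near the shares of all matched unigenes. The Myc homolog (Unigene59626), a driver of growth and division, had 10 tags and then 70, 5.65-fold higher (2.90 to 12.3), and PHD finger protein 10 (Unigene19547), a chromatin remodelling subunit, 18 and then 88, 3.95-fold (2.36 to 6.97). Transcription factor Tal (Unigene91923), known in vertebrates from blood formation, had 98 and then 7, 17.3-fold lower (8.10 to 44.2). The Kruppel-like factor (Unigene92331), the most abundant of the list, had 627 and 380, 2.04-fold lower (1.80 to 2.33), and was not called. The general factor TFIIB (Unigene81321) had 0 tags on day 10, 62 on day 15 and none listed later.

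Division genes rarely reached the level for comparison. Of 65 unigenes of DNA replication and cell division, 23 were listed on day 10 (35.4%) and 45 on day 15 (69.2%), beside 39.2% and 66.0% of all matched unigenes. Of these 5 were compared, 1 was higher and 0 lower. With the totals alone as the scale 4 were higher, but the unigenes reaching the level were then not the same. Geminin (Unigene4604), which keeps replication origins from firing again in 1 cycle, had 50 tags and then 221, 3.57-fold higher (2.62 to 4.95). The GINS protein PSF2 (Unigene87483), of the replicative helicase, had 45 and then 22 and was not called. Below the level, the sliding clamp PCNA (Unigene90357) had 7 and then 50 tags and cyclin G1 (Unigene91307) 3 and then 36. Of the 43 chromatin unigenes the one compared was SMARCC2 (Unigene91887), with 21 and then 60 tags, 2.31-fold higher (1.38 to 3.99), and histone H2A (Unigene11564) had 0 and then 12.

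Cytosolic translation factors that were called were lower. Leaving out unigenes that matched the list by another word, 0 of 5 translation factors and tRNA synthetases were higher and 3 lower. Of all matched unigenes compared 31.1% were higher and 17.6% lower. The synthetase and elongation factor 1 alpha below entered the comparison through day 10 only, which in part set their direction. Valyl-tRNA synthetase (Unigene77381), which loads valine onto its tRNA, had 98 tags and then 2, a ratio of 60.7 (16.4 to 508). Elongation factor 1 alpha (Unigene42240), which brings loaded tRNAs to the ribosome, had 93 and then 27, 4.26-fold lower (2.75 to 6.81), and an initiation factor 3 subunit (Unigene90069) 322 and then 98, 4.07-fold lower (3.24 to 5.15). In splicing and RNA processing 2 of 9 were higher and 0 lower. The nuclear pore protein p62 (Unigene91063), outside these lists, had 137 and then 11, 15.4-fold lower (8.35 to 31.6).

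Several broad families could hardly be compared. Of 130 kinases and phosphatases 2 reached the level, of 84 channels, pumps and carriers 1, and of 53 small GTPases and their regulators 3, and none of these was called. The 25 mobile element unigenes had none at that level, with 7 listed on day 10 and 13 on day 15. Collagen and adhesion genes had 3 of 53, with type IV collagen (Unigene90525) at 36 and then 64 tags and not called.

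The gene ontology terms, given for 2703 unigenes, annotate many of the unigenes already described. Of 173 compared with a term, the higher ones numbered 49 and the lower ones 24, at a median log2 ratio of 0.49. By cell component, unigenes of the exact term nucleus were higher in 12 of 29 and lower in 4 (median 0.96), those of cytosol higher in 6 of 13 and lower in 1 (median 1.33), and those of microtubule higher in 4 of 5 and lower in 0 (median 2.92). Membrane was the large term that leaned the other way, with 2 of 12 higher and 5 lower (median -1.18).

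By function, protein binding had 13 of 45 higher and 5 lower, close to the share of all unigenes with a term, ATP binding 3 of 13 higher and 3 lower, and structural constituent of ribosome 0 of 5 in either direction. By process, the terms for ubiquitin ligase activity in mitosis had 3 of 4 higher and 0 lower, and they share members with the proteasome list. The term for proteasomal breakdown by the anaphase-promoting complex held subunit 6B, alpha-5, beta 2 and Unigene91476, a hypothetical protein match with 9 and then 96 tags. Calcium ion binding, a function term of 42 unigenes, was listed for 19 on day 10 and 36 on day 15, and 2 of 4 compared were higher. The broader group of mitochondrial terms had 7 of 20 higher and 3 lower, close to that share as well, and that of cell cycle and division 7 of 17 higher and 1 lower, again with proteasome subunits among them.

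The organism of the best match also separated the unigenes. Of 16 compared unigenes whose best match was a protein of the related pearl oyster Pinctada fucata, the lower ones numbered 8 and the higher ones 2, at a median log2 ratio of -2.25. Those with a best match in the acorn worm Saccoglossus kowalevskii were higher in 22 of 46 and lower in 5 (median 1.26), and those with one in the lancelet Branchiostoma floridae higher in 18 of 58 and lower in 13 (median 0.67). Matches to the oyster Crassostrea gigas were higher in 6 of 14 and lower in 4. Of the 16 Pinctada fucata matches 9 are in the shell matrix list and 2 among the protease inhibitors, so they are no separate evidence.

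The tags within a unigene gave a second readout. Of 1531 compared unigenes listed on both days, 1291 (84.3%) had the same most abundant tag and 1452 (94.8%) the same CATG site. Of 791 unigenes with at least 50 tags on both days, 67 (8.47%) had leading tags at 1 site that differed by 1 base, and 43 of these 67 differences were transitions, that is, exchanges of A with G or of C with T. The other 9 pairs of libraries gave 7.09% to 10.2% of unigenes, so days 10 and 15 were within the range of the rest. In 53 of the 67 the summed level was not called, and in 4 the leading tag made up more than 90% on each day.

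The following pairs show what such a change looks like, with the base that differs in capitals and positions counted from 1 at the 5′ end of the tag. They were chosen after their values were seen.
Galectin, Unigene82154, leading tag on day 10: catggggagaTgaggaaagag
Galectin, Unigene82154, leading tag on day 15: catggggagaCgaggaaagag
Proteasome subunit alpha-5, Unigene90760, leading tag on day 10: catgcaaataaatGaggaaaa
Proteasome subunit alpha-5, Unigene90760, leading tag on day 15: catgcaaataaatAaggaaaa
Signal sequence receptor beta, Unigene66740, leading tag on day 10: catgacactaccatctCtgtg
Signal sequence receptor beta, Unigene66740, leading tag on day 15: catgacactaccatctTtgtg
For galectin (T11C) the day 10 tag had 614 copies on day 10 and 0 on day 15, and the other had 580 and 942, so the sum hid the loss of 1 form. For proteasome alpha-5 (G14A) the copies were 140 and then 0 against 99 and then 924. For signal sequence receptor beta (C17T) they were 515 and then 24 against 135 and then 238, and both forms were present in all 5 libraries, with 624 and 141 on day 30. The galectin and proteasome tags led on day 10 had 0 to 10 copies on days 20, 30 and 60. Both forms of each tag were present on day 10 and differed in share between the libraries, and whether the libraries came from different oysters is not given in the sources used here.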

How the data were processed

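Digital gene expression tag profiles of 1 pearl sac library per day were used, and the comparison was of day 15 with day 10. The deposited tables give a tag count per unigene, per the file headers the sum of its tags, with no normalization, and a TPM value, which by the numbers the authors obtained by dividing the count by a library total. Neither aligner, assembly nor allowed mismatches are given in the sources used here. A TruSeq RNA kit is named in the labels although it makes no CATG tags, and the values were treated as the tag counts the tables show. No tag under 2 copies is listed, so an unlisted unigene may have had a tag seen once.

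Totals were recovered as count over TPM in unigenes of at least 5000 tags. TMM factors came from edgeR 4.0.16 (R 4.3.3) over the 5 libraries. Ratios had Clopper-Pearson 95% intervals conditional on the 2 counts (scipy 1.17.1, Python 3.11.15), and medians used log2 of scaled TPM plus 1. The procedure was tested on simulated data. The 28 lists of protein descriptions, 26 of gene ontology terms and 6 of markers, like the comparison itself, were chosen with earlier results of these data known. Named by rule were, in each direction, the 20 matched and 5 unmatched unigenes with the bound farthest from 1 and the called members of each list (4 of lists with 6 or more). Of unmatched ones 2 a direction are printed, and some matched ones, Unigene54522 among them, are not printed. Other unigenes in the text, among them list members not called or below the level for comparison, were chosen later, with their values seen. Alternatives were other scalings (DESeq2 1.42.0 size factors among them), minimum levels, interval widths, the 3′-most site alone and a pseudocount of 5.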

Additional observations from a re-analysis of the deposited data

How the results depend on the processing

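With a minimum of 1 scaled TPM, 796 unigenes of 7243 compared were higher and 1028 lower, with a minimum of 50 scaled TPM 116 of 455 and 103, and with the interval beyond 4-fold 181 and 228 of 1669. Scaling by totals alone gave 468 higher and 319 lower, median-of-ratios factors 390 and 357 (52.2% of calls higher, the median up by 0.14), TMM from the 2 libraries 354 and 405, totals without the most abundant unigene 463 and 325 (58.8% higher, up by 0.28), the point ratio 471 and 513, and the 3′-most site 288 and 350. All 339 higher calls stayed under each scaling, and 319 to 395 of the 400 lower ones. Of 104 unigenes named by the rule, 5 lost their call with totals alone and 3 with median-of-ratios factors. At the 3′-most site 11 lost it, among them tyrosinase-like protein (Unigene1470), radial spoke head, CD151, calmodulin, heat shock protein 60, TFIIB and Unigene90288. There 6 had no tag, among them alpha-tubulin and a Kazal-type inhibitor (Unigene71003), and 2 changed sign: cytochrome c oxidase 5A (Unigene85283) to a log2 ratio of -0.53 and Unigene18071, a hypothetical protein match with 57 tags and then 4, to 0.44; at that site the first had 2 tags in all. A pseudocount of 5 moved the median of the shell list to -2.79 and of the cilia list to 2.61. No paired analysis was possible because each day has 1 library. Without replicates nothing could be left out in turn, and the depth limits small counts: an unlisted unigene is bounded at 3 tags only.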
